A study of Mus musculus with 2 samples.

Results

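Galectins were followed through splenic natural killer (NK) cells and the other blood-cell types caught with them in 2 single-cell libraries. The members are Lgals1, Lgals3, Lgals8 and Lgals9, which encode galectins, and Lgals3bp, which encodes a galectin ligand. They were matched by gene symbol, 5 of the 31053 genes in the count tables, each with 1 row. They were chosen by their values in these libraries, namely the levels across cell types and the ratio of knockout over control in NK cells. Both are therefore given as a description, with no test.

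Galectins are soluble proteins that bind beta-galactoside sugars on the glycoproteins of cell surfaces, where they cross-link receptors and can change how long a cell adheres, signals or survives. Galectin-1 is a dimer of identical subunits. Galectin-3 is the only vertebrate galectin in which a sugar-binding domain is joined to a proline- and glycine-rich tail, and it is a familiar product of macrophages. Galectin-8 and galectin-9 are tandem-repeat galectins, each with a pair of different sugar-binding domains in 1 chain. The protein made from Lgals3bp is a heavily glycosylated secreted scavenger-receptor protein that binds galectin-3.

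The cells were sorted from spleens of C57BL/6 mice as NK cells positive for CD27 and CD11b, a gate that takes in NK cells part-way through maturation. Both groups carry floxed alleles of Ptger3, the gene of the prostaglandin E2 receptor EP3. The group EP3F/F has no Cre and is the control. The group NKp46CreEP3F/F also carries Cre driven by Ncr1 (NKp46), which is active in NK cells and in other cells that express Ncr1, and is called the knockout. The age of the mice is not given in the sources used here. Cells of 2 mice were pooled per genotype into 1 library, so genotype, pool and library cannot be told apart and no spread between animals can be given.

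The control library held 69853026 UMIs (unique molecular identifiers, each counting 1 captured transcript) in 11785 barcodes and the knockout library 42795121 in 10615. After cell filters 10928 and 10023 barcodes were kept, with medians of 5816.5 and 3832 UMIs, and 33 barcode sequences occurred in both libraries. Ptger3 had 19 UMIs in the control library and 0 in the knockout library, where the latter allows up to 3. Whether its tags lie in the floxed part is not given in the sources used here. Ncr1 stood at 780.5 and 785.2 counts per 1000000 UMIs (CPM). Cells were gated on summed UMIs of marker genes, none of which is a galectin. The NK gate held 10328 control cells (94.5%) and 9009 knockout cells (89.9%). In these NK cells the 12 macrophage markers summed to 5.93 CPM in control and 13.5 CPM in knockout with none at 0, and the monocyte and neutrophil markers other than Ccr2 summed to 5.31 and 16.9 CPM.

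The promoters printed here belong to Lgals9 and Lgals3bp, the members with the largest difference in NK cells that express interferon-response genes, described further on. They come from RefSeq in the build GRCm38.p6 and run from 250 bases before the annotated start to 50 bases after it. Both genes lie on the minus strand of chromosome 11, in the windows chr11:78984875-78985174 for Lgals9 and chr11:118401910-118402209 for Lgals3bp. Capitals mark each match to a core of the interferon-stimulated response element, spelled GAAA, any 2 bases, GAAA, and searched on both strands.
Lgals9: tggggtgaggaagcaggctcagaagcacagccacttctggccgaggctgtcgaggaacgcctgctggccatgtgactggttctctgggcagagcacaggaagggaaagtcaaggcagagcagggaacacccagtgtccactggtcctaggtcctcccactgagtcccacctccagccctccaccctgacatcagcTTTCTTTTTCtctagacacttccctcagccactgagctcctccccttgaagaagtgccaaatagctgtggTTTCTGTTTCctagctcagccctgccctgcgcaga
Lgals3bp: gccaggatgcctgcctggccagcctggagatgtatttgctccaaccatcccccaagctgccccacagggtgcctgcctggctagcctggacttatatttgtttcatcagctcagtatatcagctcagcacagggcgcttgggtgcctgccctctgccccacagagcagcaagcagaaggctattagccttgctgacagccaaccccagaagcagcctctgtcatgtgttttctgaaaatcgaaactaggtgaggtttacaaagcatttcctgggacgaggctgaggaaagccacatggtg
The Lgals9 window holds 2 matches, which do not overlap, both on the strand opposite to the gene. They begin at positions -55 and 15, counted from the start site as position 0, and the second lies past the annotated start. The Lgals3bp window holds no match by that exact spelling, nor do those of Lgals3 and Lgals8. Near spellings were not searched for in any promoter. The Lgals3bp window does hold aaaatcgaaa, which differs from the spelling in its leading letter. How many promoters hold such a near spelling was not counted, so this run says nothing particular about Lgals3bp. Of 32851 RefSeq promoters of the same length, 3.44% hold at least 1 match. A STAT element, TTCNNNGAA, occurs in 8.30% of these promoters and in none of the 4 galectin windows found in the table, which were those of Lgals3, Lgals8, Lgals9 and Lgals3bp. A match is a run of letters and not a measured binding site.

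The genes themselves are protein coding, given here in GRCm38. Lgals1 lies at chr15:78926725-78930465 on the plus strand and Lgals3 at chr14:47367751-47386160 on the plus strand. Lgals8 lies at chr13:12439415-12464944, Lgals9 at chr11:78962974-78984946 and Lgals3bp at chr11:118392751-118402092, all on the minus strand. Lgals8 overlaps Heatr1 on the other strand. How the counting treated strand is not given in the sources used here, so part of the Lgals8 count could belong to Heatr1.

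Lgals1, whose product galectin-1 is known for inducing death of activated T cells through glycans of CD45, CD43 and CD7, was detected in nearly all NK cells. Its level in NK cells was 1713 CPM in the control library (95% exact Poisson interval 1703 to 1723, from 112339 UMIs) and 1153 CPM in the knockout library (43780 UMIs). The knockout level was thus 1.49-fold lower, a log2 ratio of -0.57 with an interval of -0.59 to -0.56. These intervals, like all below, cover counting error alone, and no UMI interval stands in for the spread between mice. The ratio ranked 6280th from the top of 7327 genes with at least 10 CPM over both libraries. Below, genes whose log2 ratio reaches 0.32 in size are counted as higher or lower, without a test.

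The share of cells with an Lgals1 UMI depends on depth. Before thinning it was 97.99% of control and 89.88% of knockout NK cells. With every cell thinned to 2000 UMIs it was 90.1% (9174 of 10185 cells) and 78.8% (6953 of 8820). Cells with at least 5 thinned Lgals1 UMIs made up 27.9% of control and 14.5% of knockout NK cells. The lower knockout level thus showed in the share of cells and in the counts per cell.

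Lgals3 had the opposite difference between the libraries. Its NK level was 23.8 CPM in control (1562 UMIs, interval 22.7 to 25.0) and 83.9 CPM in knockout (3185 UMIs). The knockout level was 3.52-fold higher, with a log2 ratio of 1.82 and an interval of 1.73 to 1.90, the 7th highest of 7327 genes. The unthinned share of NK cells with an Lgals3 UMI was 10.6% in control and 23.2% in knockout. After thinning it was 4.06% of control cells (interval 3.68 to 4.46) and 14.0% of knockout cells (13.3 to 14.8). Cells with at least 2 thinned UMIs were 0.344% and 2.82%. For comparison, in T cells with few NK transcripts, thinned to the same depth, 3.39% of 59 knockout cells held an Lgals3 UMI (interval 0.413 to 11.7), from median depths of 4995 UMIs in those T cells and 3827 in NK cells. Of 28 control T cells of that kind 0 held an Lgals3 UMI (interval up to 12.3).

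Because macrophages carry much Lgals3, its level in NK cells was set beside the levels of genes that macrophages make. The NK level of Lgals3 was 4.10% of the macrophage level in control and 12.4% in knockout. For the complement genes C1qa, C1qb and C1qc, products of tissue macrophages, it was 0.0228% and 0.0430%. For Lyz2, the lysozyme gene of myeloid cells, it was 0.0434% and 0.109%. Against cells high in MHC class II transcripts, the NK level of the 4 class II genes was 0.0271% and 0.0425%, and that of Lgals3 3.58% and 29.2%. The C1q and class II shares are lowered by the gates themselves. NK cells were kept only with at most 2 macrophage and 4 class II marker UMIs. The comparison cells were taken for at least 5 macrophage or 10 class II marker UMIs. Lyz2 and Lgals3 were in no gate. Whether RNA of other cells supplies part of the NK Lgals3 was not tested. The Lgals3 ratio between libraries was 1.82 in NK cells with no UMI of any macrophage, monocyte or neutrophil marker other than Ccr2. Other marker sums differed between the libraries as well. The 8 ILC1 markers summed to 48.7 CPM in control and 98.3 CPM in knockout NK cells, and the 9 immature NK markers to 2141 and 2884 CPM, with none of either list at 0. In NK cells with no ILC1-marker UMI, 8703 in control and 7004 in knockout, the Lgals3 ratio was 1.83.

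The tandem-repeat galectins and the ligand differed less. Lgals8, whose product binds sugars exposed on damaged endosomes, stood at 49.2 CPM in control (3228 UMIs) and 38.0 CPM in knockout (1443 UMIs). Its log2 ratio was -0.37 (-0.46 to -0.28), and under median-of-ratios scaling it was -0.31, short of the size of 0.32. Lgals9, whose product is a ligand of the receptor Tim-3, stood at 66.1 and 65.2 CPM from 4331 and 2477 UMIs. Its ratio was -0.02 with an interval of -0.09 to 0.05, which contains no difference. Lgals3bp stood at 55.7 and 47.5 CPM from 3651 and 1804 UMIs, with a ratio of -0.23 (-0.31 to -0.15).

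Of the 5 members, all with at least 10 CPM, 1 was higher and 2 were lower in knockout NK cells by the size of 0.32. Among all 7327 genes 43.9% passed that size, 14.8% upward and 29.1% downward, with a median ratio of -0.07, so a count of 3 in 5 says nothing particular about galectins. Kept cells had a median of 2112 genes in control and 1520 in knockout, and with each cell thinned to 2000 UMIs the ratios were -0.56 for Lgals1, 1.97 for Lgals3 and -0.39 for Lgals8. Without the shared barcodes the ratios of Lgals1 and Lgals3 were -0.57 and 1.82. Set against the 300 genes nearest in exon length, the ratios became -0.76 for Lgals1, 1.59 for Lgals3, -0.40 for Lgals8, -0.21 for Lgals9 and -0.35 for Lgals3bp, which takes Lgals3bp past the size that marks a gene.

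NK maturity was then read from a score per cell, the mean of log2(1 + UMIs) over 8 mature NK markers such as Klrg1, Zeb2 and Cx3cr1 minus that over 9 immature ones such as Cd27, Tcf7 and Ltb, after thinning. The cells of each library were split into 3 classes of equal size, 3395 control and 2940 knockout cells in each, called least mature, middle and most mature. The score is a range and not a set of types. In the control library 2053 cells lay within 0.1 of the lower cut and 2136 within 0.1 of the upper cut, and in the knockout library 1740 and 1765. The cuts differ between the libraries, at -0.0891 and 0.2069 in control and at -0.1944 and 0.1148 in knockout, with mean scores of 0.059 and -0.028, so classes of the same name do not hold cells of equal score.

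Lgals1 was higher in more mature NK cells of both libraries. Its control level was 1488 CPM in the least mature, 1702 in the middle and 1990 in the most mature class. Its knockout level was 924, 1133 and 1444 CPM. The ratio of the most over the least mature class was 0.42 (0.40 to 0.44) in control and 0.64 (0.61 to 0.68) in knockout. With 10 classes of the score it went from 1342 CPM in the lowest to 2189 CPM in the highest in control, and from 779 to 1693 CPM in knockout. The highest knockout class stood below the highest control class.

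Lgals3 ran the other way. Its control level was 28.1, 22.2 and 20.8 CPM from the least to the most mature class, and its knockout level 93.8, 85.2 and 70.8 CPM. The ratio of the most over the least mature class was -0.44 (-0.62 to -0.26) in control and -0.41 (-0.53 to -0.28) in knockout. The control middle and most mature classes differed by less than counting error. Within each class the knockout level of Lgals3 exceeded the control level, with log2 ratios of 1.74, 1.94 and 1.77 from the least to the most mature. For Lgals1 the same ratios were -0.69, -0.59 and -0.46, smaller in size in the more mature classes. With the control cuts applied to both libraries, which put 3904, 2709 and 2207 knockout cells in the classes from least to most mature, the ratios were 1.73, 1.87 and 1.70 for Lgals3 and -0.66, -0.49 and -0.39 for Lgals1. Whether the ratio differs between classes could not be tested with 1 library each.

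**Figure D1:**
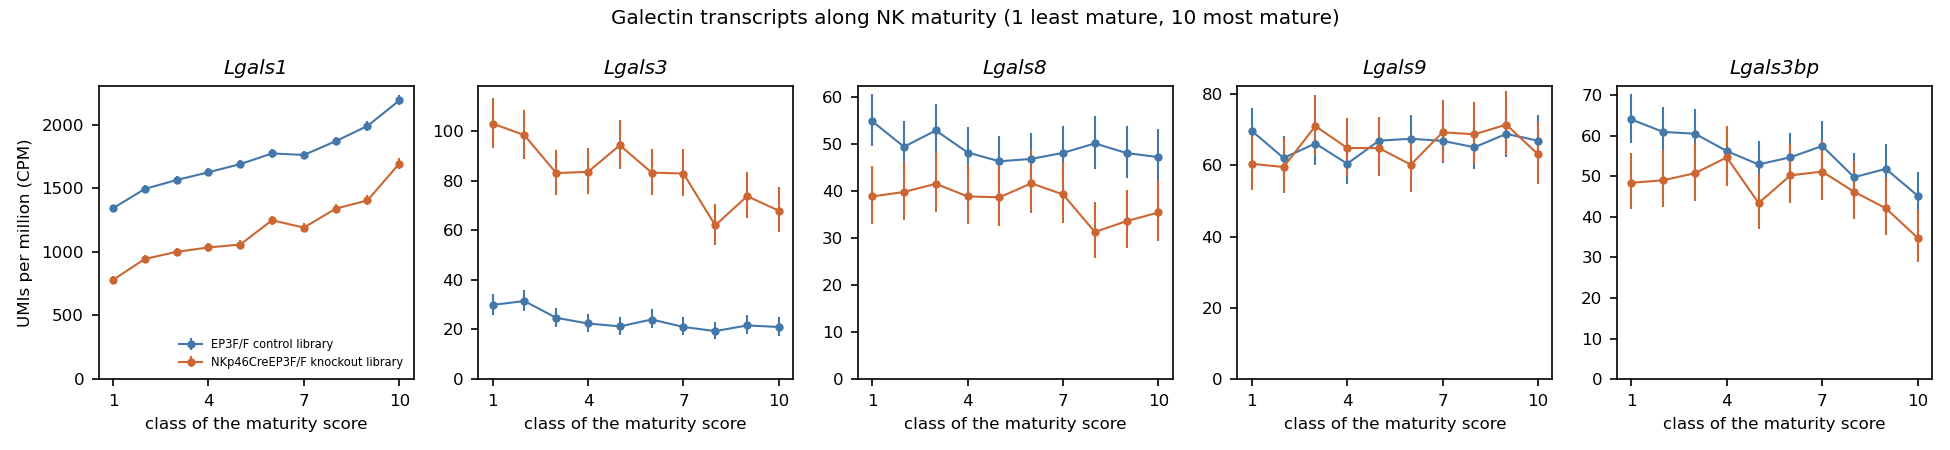
Level of each member, in CPM, in 10 classes of the NK maturity score, from 1 (least mature) to 10 (most mature), in the control (blue) and knockout (orange) libraries. Points are summed UMIs of at most 1019 control or 882 knockout cells each, and bars are exact 95% Poisson intervals. Lgals1 goes from 1342 to 2189 CPM in control, and the knockout line lies below it in each class, while for Lgals3 the knockout line lies above in each class.

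The remaining members had smaller ratios along maturity. Lgals3bp had ratios of -0.29 (-0.41 to -0.17) and -0.27 (-0.44 to -0.10), under the size of 0.32 in both libraries. It passed that size in control after thinning (-0.43) and under stricter cell filters (-0.3228), and in knockout with the score from mature markers alone (-0.35). Lgals8 had -0.09 in control, with an interval that contains 0, and -0.21 in knockout (-0.40 to -0.02). Lgals9 had 0.02 and 0.12, and both intervals contain 0. By the size of 0.32 the members past it were Lgals1 and Lgals3, 2 of 5 in either library, beside 5.65% of 7315 genes in control and 8.17% of 7238 in knockout. These genes were picked with their values known. When the score used the mature markers alone, the Lgals3 ratios were -0.15 and -0.22, under the size of 0.32, and the control Lgals1 ratio was 0.25.

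Small subsets of NK cells were read in the same way. Interferon-high NK cells, with at least 5 UMIs of 9 interferon-response genes such as Ifit1, Isg15 and Rsad2, numbered 91 in control and 74 in knockout. Lgals3bp was the member with the largest difference there. It stood at 222 CPM (160 UMIs) in control interferon-high cells against 53.8 CPM in the other NK cells, a ratio of 2.04 (1.81 to 2.27). In knockout it stood at 279 CPM (103 UMIs) against 45.2 CPM, a ratio of 2.62 (2.32 to 2.91). After thinning, 44.0% of control and 38.9% of knockout interferon-high cells held an Lgals3bp UMI, beside 10.2% and 8.53% of all NK cells.

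Lgals9 followed, at 165 CPM in control interferon-high cells (119 UMIs) against 65.0 CPM, a ratio of 1.35 (1.07 to 1.61). In knockout it was 146 CPM (54 UMIs) against 64.4 CPM, a ratio of 1.18 (0.77 to 1.57). This is the gene whose printed window holds the 2 interferon-element matches. The search took only the exact spelling, so the lack of a match for Lgals3bp does not mean that no such element is there. Whether either window bears on these levels was not tested. Lgals8 was at 79.1 CPM (57 UMIs) in control and 73.1 CPM (27 UMIs) in knockout interferon-high cells, with ratios of 0.69 (0.29 to 1.07) and 0.96 (0.35 to 1.504). Lgals3 had ratios of -0.10 and -0.05 with intervals that contain 0. Lgals1 had -0.27 (-0.36 to -0.18) in control and -0.14 in knockout, where the interval contains 0. In all, 3 of 5 members were higher in interferon-high cells of both libraries, beside 15.5% of 7311 genes in control and 21.3% of 7123 in knockout. The interferon-high cells of the control were deeper than NK cells as a whole, with medians of 7229 and 5827.5 UMIs.

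**Figure D2:**
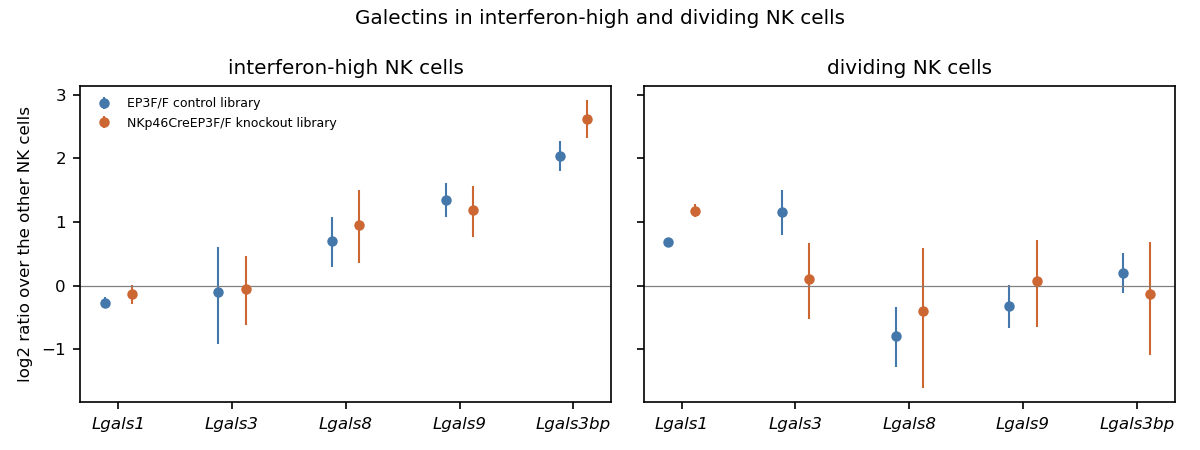
Log2 ratio of each member in interferon-high NK cells (left) and dividing NK cells (right) over the other NK cells of the same library, control in blue and knockout in orange. Points are ratios of CPM and bars are exact 95% intervals from counts. Lgals8, Lgals9 and Lgals3bp lie above 0 at left in both libraries, with Lgals3bp highest at 2.04 and 2.62, and Lgals1 lies above 0 at right in both.

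Dividing NK cells, with at least 5 UMIs of 10 mitosis genes such as Mki67 and Top2a, numbered 113 in control and 26 in knockout. Lgals1 was higher in them, at 2733 CPM (3808 UMIs) in control and 2588 CPM (715 UMIs) in knockout. Its ratio over the other NK cells was 0.69 (0.65 to 0.74) in control and 1.18 (1.07 to 1.29) in knockout. Between the libraries, the Lgals1 level in dividing cells had a ratio of -0.08 with an interval that contains 0. The test of whether that departs from the -0.57 of all NK cells cannot be made. Lgals3 was at 51.7 CPM in control dividing cells, a ratio of 1.15 (0.79 to 1.496), and at 90.5 CPM in knockout, a ratio of 0.11 with an interval that contains 0. Lgals8 was lower in control, at 28.7 CPM with a ratio of -0.79 (-1.28 to -0.34), and its 8 UMIs in knockout left the ratio of -0.39 within counting error. In control 4 of 5 members passed the size of 0.32, among them Lgals9 at -0.32 with an interval that contains 0, and in knockout 2 of 5, beside 48.7% and 65.1% of all genes. Medians of 11681 and 10935 UMIs made these the deepest cells.

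ILC1-like cells numbered 63 in control and 127 in knockout. They were taken by at least 5 summed UMIs of markers of group 1 innate lymphoid cells, such as Il7r and Cxcr6, with no Eomes UMI. No Eomes UMI in a cell does not show that Eomes is absent. Their NK markers summed to 4287 and 4747 CPM, beside 7628 and 7246 CPM in NK cells. The gate itself shapes these sums, since it asked for at least 4 NK-marker UMIs and no UMI of Eomes, 1 of the 8 NK markers. How many of the ILC1-like cells are NK cells was not tested. Lgals1 was lower in ILC1-like cells than in NK cells, at 1182 CPM in control (ratio -0.54, -0.67 to -0.40) and 863 CPM in knockout (-0.42, -0.55 to -0.29). Against the least mature NK class the knockout ratio of -0.10 had an interval that contains 0. Lgals3 was higher in ILC1-like cells, at 75.6 CPM in control (28 UMIs, ratio 1.67, 1.07 to 2.20) and 157 CPM in knockout (84 UMIs, ratio 0.90, 0.57 to 1.22). It also exceeded the least mature NK class, with ratios of 1.43 and 0.74 and intervals above 0 in both libraries. Lgals8, Lgals9 and Lgals3bp stood between 42.9 and 72.9 CPM, with intervals that contain no difference from NK cells. With the least UMI counts of the gates doubled, control Lgals8 had a ratio of -1.06 in place of 0.06 and knockout Lgals9 -1.39 in place of -0.27. By size 3 of 5 members passed in control and 2 of 5 in knockout, beside 46.5% and 39.5% of all genes.

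T cells, taken by Cd3e, Trac and other T cell genes, split by NK transcripts. With NK transcripts, 29 control and 80 knockout cells, Lgals1 was at 839 and 443 CPM. With few of them, 28 and 60 cells, it was at 122 CPM (23 UMIs) and 261 CPM (81 UMIs). In the knockout T cells 30 of those 81 UMIs came from 1 cell, without which the level was 168 CPM. The knockout over control ratio of Lgals1 in these T cells was 1.09, where 66.8% of all genes passed the size of 0.32. Lgals3 had 0 of 187893 UMIs in control T cells with few NK transcripts, which allows up to 16.0 CPM. In the knockout T cells it had 15 UMIs, 12 of them in 1 cell. Lgals9 was at 63.9 and 48.3 CPM in these T cells, within counting error of each other. Lgals8 was at 26.6 and 29.0 CPM, and Lgals3bp at 31.9 and 25.7 CPM, from at most 9 UMIs each.

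Macrophages with few NK transcripts, 39 control and 135 knockout cells, carried C1qa, Vcam1 and Csf1r, with all 12 macrophage markers above 0. Their medians of 1200 and 1419 UMIs are low. Lgals3 stood at 582 CPM in control (38 UMIs, 16 of them in 1 cell) and 678 CPM in knockout (164 UMIs). Without that cell and its knockout counterpart the levels were 397 and 669 CPM. Over NK cells the ratio was 4.61 (4.11 to 5.07) in control and 3.01 (2.78 to 3.24) in knockout. Between the libraries the macrophage ratio was 0.22, with an interval of -0.30 to 0.77.

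Lgals3bp was the other macrophage-high member, at 230 CPM in control (15 UMIs) and 231 CPM in knockout (56 UMIs), with ratios over NK cells of 2.04 and 2.28. Lgals1 was lower than in NK cells, at 276 CPM (18 UMIs) and 136 CPM (33 UMIs). Lgals9 at 76.6 and 49.6 CPM and Lgals8 at 15.3 and 41.3 CPM could not be told from NK cells at this depth. Members past the size of 0.32 numbered 4 of 5 in both libraries, and so did 78.4% and 79.8% of all genes, so this count carries no information. Droplets that held both macrophage and NK markers, 129 and 220, had Lgals1 at 1378 and 904 CPM and Lgals3 at 97.6 and 154 CPM, between the levels of macrophages and of NK cells for both genes in both libraries.

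Cells high in MHC class II with few NK transcripts, 73 control and 104 knockout cells, held 9 of 10 dendritic-cell markers in each library. Their macrophage markers summed to no more than 75.0 CPM, but the gate itself allowed at most 2 macrophage-marker UMIs per cell. They are called here by their class II genes, since their dendritic markers summed to 884 and 496 CPM only. NK cells held dendritic markers too, with 3 of the 10 at 0 in each library and sums of 335 and 298 CPM. Lgals3 was at 665 CPM (88 UMIs) in control and 287 CPM (69 UMIs) in knockout, the opposite order to NK cells, with a ratio of -1.21 where 72.6% of all genes passed the size of 0.32. In the same cells the monocyte and neutrophil markers other than Ccr2 summed to 589 CPM in control and 375 CPM in knockout, and the 4 class II genes to 28090 and 37680 CPM, and their part in the Lgals3 ratio was not tested. Lgals1 was at 174 CPM (23 UMIs) and 45.8 CPM (11 UMIs). Lgals9 had 0 of 132337 UMIs in control, which allows up to 22.7 CPM, and 3 UMIs in knockout, 12.5 CPM. Lgals3bp had 1 UMI in control and 0 of 240132 in knockout, which allows up to 12.5 CPM. Lgals8 had 1 and 6 UMIs. Lgals9 and Lgals3bp were thus below the levels of NK cells here, where 82.6% of all genes passed the size of 0.32 in each library.

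**Figure D3:**
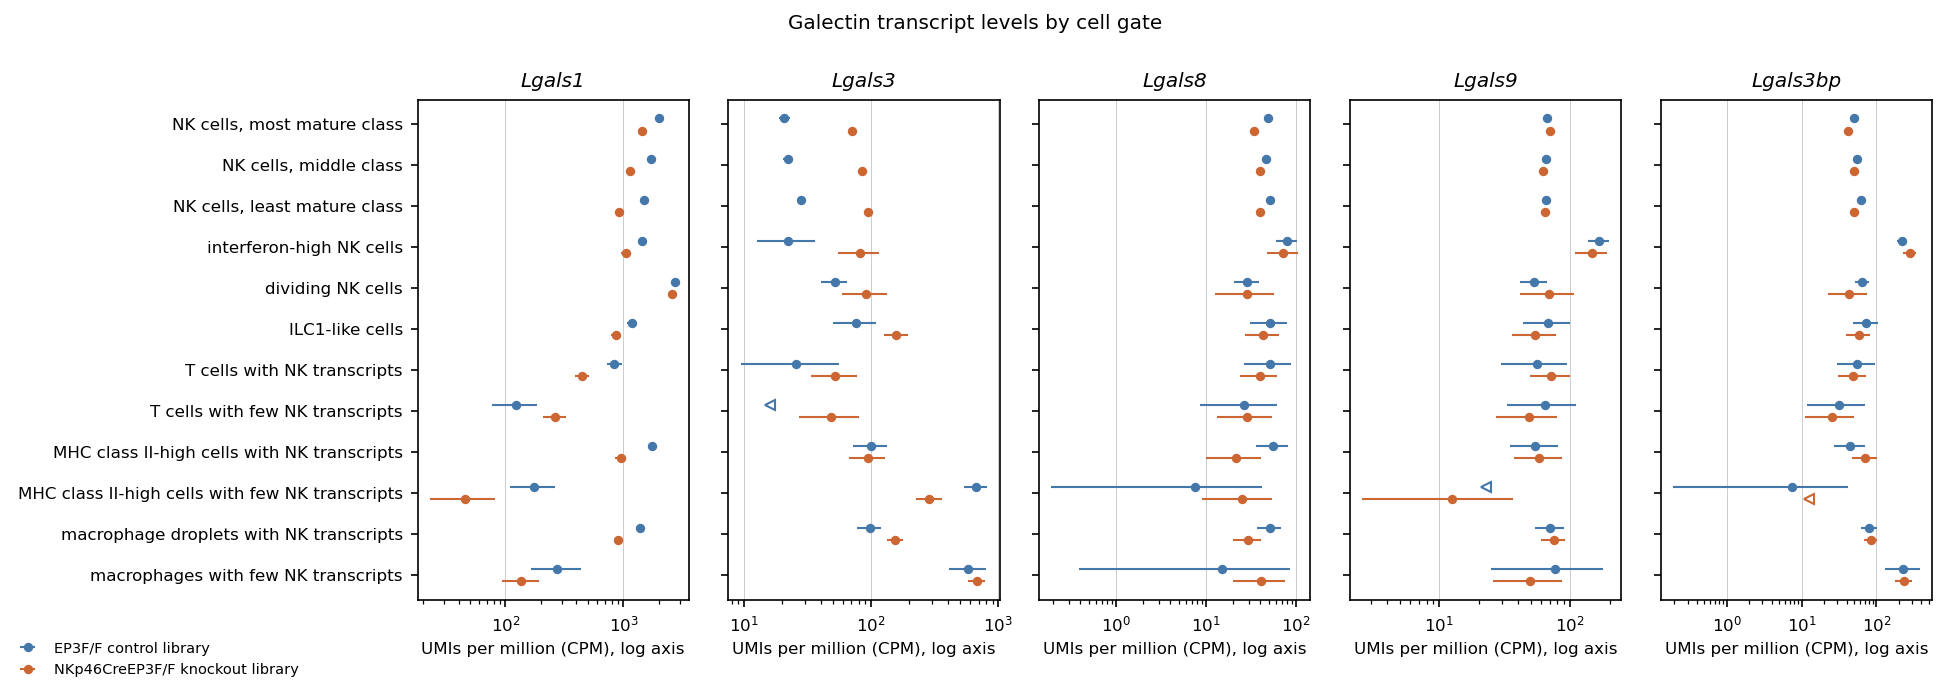
Level of each member by cell gate, on a logarithmic axis of CPM, control in blue and knockout in orange. Points are summed UMIs over the gate's total with exact 95% Poisson intervals, and open triangles mark the level that 3 UMIs would give in gates with 0 UMIs. Lgals1 is highest in dividing NK cells (2733 and 2588 CPM) and low in macrophages, T cells with few NK transcripts and class II-high cells, whereas Lgals3 is highest in macrophages and class II-high cells with few NK transcripts.

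**Figure D4:**
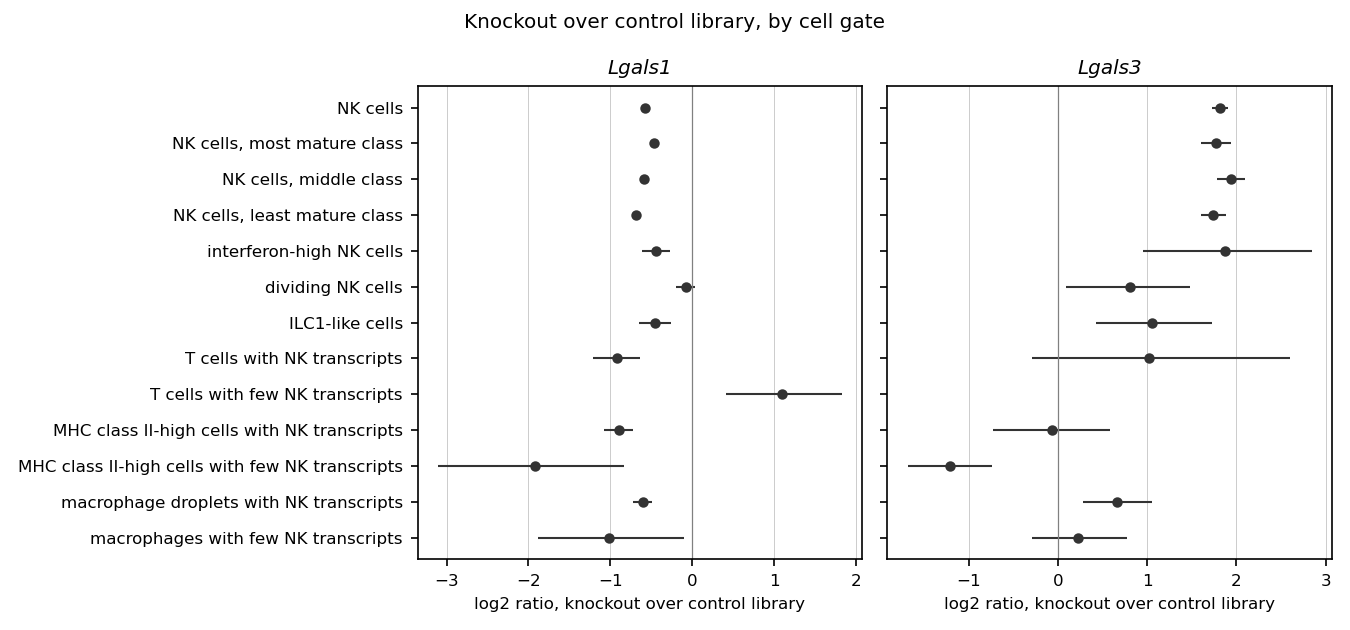
Log2 ratio of the knockout over the control library for Lgals1 (left) and Lgals3 (right) in each cell gate. Points are ratios of CPM, bars are exact 95% intervals from counts, and no Lgals3 point is drawn for T cells with few NK transcripts, where the control had 0 UMIs. Lgals1 lies below 0 in all gates except T cells with few NK transcripts (1.09), and its interval contains 0 in dividing NK cells. Each Lgals3 point lies above 0 except in both gates of class II-high cells (-0.07 and -1.21). The Lgals3 interval contains 0 in T cells with NK transcripts, macrophages with few NK transcripts and class II-high cells with NK transcripts.

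The order of levels over 10 gates, the classes of NK cells among them and the interferon-high and dividing subsets left out, differed by member. For Lgals1 the most mature NK class came first in both libraries, and macrophages, class II-high cells and T cells with few NK transcripts came last. For Lgals3 class II-high cells (665 CPM) and macrophages (582 CPM) led in control, where their difference lay within counting error. In knockout macrophages led (678 CPM), then class II-high cells (287 CPM), and these differed. For Lgals9 neighbours in the order did not differ beyond counting error except at the last step in each library, down to class II-high cells with few NK transcripts.

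Pairs of members within NK cells were read from the thinned counts. In control 4.27% of cells with an Lgals1 UMI (3.87 to 4.71) and 2.08% of cells without one (1.29 to 3.16) held an Lgals3 UMI. In knockout the shares were 14.4% (13.6 to 15.3) and 12.4% (10.96 to 14.0), in the same order as in control. Their intervals overlap, which does not show that the shares are equal. For Lgals3bp the shares with and without Lgals1 were 10.3% and 9.89% in control and 8.50% and 8.62% in knockout. The variance over the mean of thinned UMIs was 2.002 and 2.087 for Lgals1, 1.17 and 1.31 for Lgals3 and between 1.01 and 1.10 for the other members, where 1 is the value of pure counting.

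Genes whose log2(CPM + 1) followed each member most closely over 24 points, the gates of both libraries, were named as a description. The points share libraries and depth, and subsets share cells with the NK classes. Lgals1 went with Sept11 (Pearson r 0.92), Arsb and Clnk. Lgals3 went with Dstn (0.93), an actin-severing protein, Gabarap and Ftl1-ps1. Lgals8 went with Flii (0.86), Sptlc2 and Xdh, and its r with Flii was 0.93 over the control gates and 0.54 over the knockout gates. Lgals9 went with Tmed5 (0.96), Ktn1 and Aup1, and Lgals3bp with Vps54 (0.89), Picalm and Sec61a1.

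Glycoproteins that galectins bind or that serve as their receptors, 14 genes, were read from the same NK sums. Of the 11 measured, 0 were higher and 5 lower in knockout, with a median ratio of -0.17 beside -0.07 for all genes. The integrin genes Itga4, Itgb1 and Itgam had ratios of -1.18, -0.75 and -0.71. Ptprc, which encodes CD45, had -0.86, and P4hb, a disulfide isomerase bound by galectin-9, had -0.33. Against genes of like length these became -0.71, -0.69 and -0.58 for the integrin genes, -0.3248 for Ptprc and -0.45 for P4hb. Cd2, an adhesion receptor, had 0.24, under the size of 0.32. Havcr2, the Tim-3 gene, had 20 UMIs in control and 2 in knockout NK cells, too few for more than the counts.

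Enzymes that build the sugars galectins bind, 16 genes, had 14 measured, 1 higher and 5 lower, with a median of -0.29. These counts and this median are without length adjustment. B3gnt2, which extends poly-N-acetyllactosamine chains, had the largest difference, from 19.5 to 5.92 CPM, a ratio of -1.72 (-1.93 to -1.51). Gcnt1, which makes core O-glycan branches, had -0.80. Man2a1, an alpha-mannosidase of the Golgi, had -0.61 (-0.3245 against genes of like length), and C1galt1, which starts core O-glycans, had -0.58. Mgat5, which makes the branched N-glycans to which galectin-3 binds, had -0.45, but -0.10 against genes of like length. By the same adjustment St3gal4 went from -0.31 to -0.42, past the size of 0.32. Man1a and Mgat4a went the other way, from -0.31 and -0.27 to 0.04 and 0.16. B4galt1, a galactosyltransferase, was the member of the list that was higher, from 54.7 to 74.9 CPM, a ratio of 0.45. These counts of 5 in 11 and 5 in 14 stand beside 29.1% of all genes lower. Other galectin genes were scarce in NK cells of the control and knockout libraries. Lgalsl, a galectin-related gene, was at 7.20 and 7.48 CPM, Lgals4 at 2.03 and 1.40 CPM and Lgals7 at 0.336 and 0.290 CPM.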

How the data were processed

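Counts are raw: the authors deposited UMI counts per gene and barcode, not normalized, per the file headers made with software version 3.0.0. STAR, Cell Ranger 3.0.0, Seurat and the build GRCm39 are named in the submitters' processing notes. How reads were counted on strand is not given in the sources used here. Of 31053 gene IDs, 31011 matched the GENCODE M21 annotation of GRCm38, used for positions and lengths.

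Barcodes under 500 genes or over 10% mitochondrial UMIs were left out. Gates used UMI sums of marker lists, with thresholds set from those sums: NK cells had at least 4 NK-marker UMIs, at most 2 macrophage, 4 class II, 1 B cell and 1 T cell marker UMI, and were not ILC1-like. ILC1-like cells met the same limits on NK, macrophage, class II, B cell and T cell UMIs, and had at least 5 ILC1-marker UMIs and no Eomes. T cells had at least 3 T cell UMIs, macrophages at least 5 macrophage UMIs and class II-high cells at least 10 class II UMIs. T cells also met the limits on macrophage, class II and B cell UMIs, and class II-high cells those on macrophage, B cell and T cell UMIs. T cells, macrophages and class II-high cells were each split at 4 NK-marker UMIs, and 178 control and 215 knockout cells fell in no gate. Cd28 and Ighm were left out of the T cell and B cell gating sums because NK cells carry them. Ccr2 was left out of the monocyte and neutrophil sum for the same reason, and no gate used that sum. No doublet caller was run, and mixed droplets form gates of their own.

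UMIs were summed per gate and library and given per 1000000 UMIs (CPM). Counts carry exact Poisson intervals, shares exact Clopper-Pearson intervals and ratios exact conditional binomial intervals, at 95%, and the floor for a gate with 0 UMIs is 3 UMIs. Reads sharing a UMI are not seen here, so intervals cover counting error alone. With 1 library per group of 2 pooled mice there is no test and no p-value. The thinned cells left out 143 control and 189 knockout NK cells under 2000 UMIs. Steps were tested on simulated data. Members, lists, gates and alternatives were chosen with earlier results of these data known. Partner genes named were up to 6 of each list with the largest ratio among genes of at least 10 CPM, plus Havcr2. St3gal4, Man1a and Mgat4a were named besides for their length-adjusted ratios. Tools were scipy 1.17.1 and numpy 2.4.6 for the intervals, pandas 2.3.3 for tables and matplotlib 3.10.9 for plots, under Python 3.11.15. Alternatives tried were other scalings, thinning, cell filters, gate thresholds, scores and length adjustment.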

Additional observations from a re-analysis of the deposited data

Results flagged for a closer look

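Lgals1 went against its NK direction in T cells with few NK transcripts, where the knockout over control log2 ratio was 1.09 (0.41 to 1.83, from 23 and 81 UMIs) beside -0.57 in NK cells. Without the cell with most Lgals1 UMIs in each library it was 0.74. The difference between the gates was not tested, since each group has 1 library, and 66.8% of genes passed a size of 0.32 in these T cells.

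Lgals3 went against its NK direction in class II-high cells with few NK transcripts, where the ratio was -1.21 (-1.69 to -0.74, from 88 and 69 UMIs) beside 1.82 in NK cells. Without the cell with most Lgals3 UMIs in each library it was -1.24. This difference was not tested either, and 72.6% of genes passed the size in these cells. The monocyte and neutrophil markers other than Ccr2 went from 589 to 375 CPM between the same cells of the control and knockout libraries and the class II genes went from 28090 to 37680 CPM, and their part was not tested.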

How the results depend on the processing

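No paired analysis was possible because each genotype has 1 library and the labels give no replicate numbers. Of the alternative values for the knockout over control ratios, 23 moved beyond the counting interval, 67 did not, and none of the 54 for Lgals1, Lgals3 and Lgals8 changed direction. Lgals1 became -0.50 under median-of-ratios scaling, -0.46 in the most and -0.69 in the least mature class, -0.76 after length adjustment and -0.54 with mitochondrial and ribosomal protein genes left out of the total. Lgals3 became 1.97 in thinned cells, 1.94 in the middle class, 1.59 after length adjustment and 1.91 as a mean of each cell's own CPM. Lgals8 became -0.51 in the most mature and -0.24 in the middle class, Lgals9 0.067 in the most mature class and -0.21 after length adjustment, and Lgals3bp -0.12 in the middle class and -0.35 after length adjustment. At the control cuts, the most mature, middle and least mature classes gave -0.39, -0.49 and -0.66 for Lgals1. The most mature class gave 1.70 for Lgals3, -0.51 for Lgals8 and -0.37 for Lgals3bp, and the middle class -0.15 for Lgals3bp. NK cells without ILC1-marker UMIs gave -0.54 for Lgals1. For the most over the least mature class, the score from mature markers alone gave 0.25 (control) and 0.42 (knockout) for Lgals1, -0.15 and -0.22 for Lgals3 and 0.087 for control Lgals8. Stricter cell filters gave 0.44 and 0.69 for Lgals1, and thinning gave -0.43 for control Lgals3bp.

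For gates over NK cells, 161 alternative values stayed within the interval and 11 did not. With the least UMI counts of the gates doubled, interferon-high control cells gave 1.70 for Lgals9 and 2.30 for Lgals3bp. Control ILC1-like cells gave -0.91 for Lgals1 and -1.06 for Lgals8, and knockout ones -0.83 for Lgals1, 1.34 for Lgals3 and -1.39 for Lgals9. Control class II-high cells with NK transcripts gave 0.14 for Lgals1, and knockout T cells with NK transcripts -0.53 for Lgals9. As a mean of each cell's own CPM, control dividing cells gave 0.82 for Lgals1 and knockout T cells with NK transcripts -1.64. With a minimum of 1 UMI in each library, 3 glycan enzymes were higher in place of 1. The cause was not tested in any of these. The alternatives on shared barcodes, ILC1 markers, control cuts, on interferon-high and dividing cells, on totals and on means over cells for the knockout over control ratios were added after the data were seen. Counts under about 30 UMIs, as for most members in T cells, macrophages and class II-high cells, leave wide intervals.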
